A study of Mus musculus with 16 samples.

Results

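The genes described here store and release neutral lipid: Cd36, Fabp5, Dgat1, Dgat2, Soat1, Plin2, Plin3, Pnpla2, Lipe and Hilpda. They were chosen by name for their place in triglyceride storage and the lipid droplet, and all 10 were found among the 54456 gene rows of the count table. The table holds bulk RNA sequencing of T cells from OT-I mice, which carry a transgenic receptor for an ovalbumin peptide and make mostly CD8 T cells. For 8 weeks the animals ate a high-fat diet (HFD; fat gave 60% of the energy) or standard chow (lean), and the cells came from visceral adipose tissue (VAT) or lymph node (LN). The 4 groups were HFD VAT, HFD LN, lean VAT and lean LN, with 4 libraries each and 16 in all. All 4 groups came from OT-I mice and none from mice without the transgenic receptor. The age of the mice and any pooling are not given in the sources used here, and whether each library is a separate animal is stated only as a biological replicate number.

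Cells store fatty acids by joining them to glycerol, or to cholesterol, and keep the esters in droplets enclosed by a coat of perilipin proteins. Lipases release the fatty acids again for oxidation or membrane synthesis, and inhibitors of those lipases hold the store in place. Resident memory CD8 T cells of mouse skin are known to take up and burn fatty acids, and in most cell types the perilipin made by Plin2 is degraded when no droplet binds it.

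Dgat1, which encodes the enzyme that adds the last fatty acid to make triglyceride, was 15.3-fold higher in VAT than in LN on HFD and 13.3-fold higher in lean animals, and diet moved it in neither tissue by more than the spread. Plin2, which encodes the droplet coat protein perilipin 2, was 691-fold higher in lean VAT than in lean LN, where it was close to absent. In HFD LN it averaged 17.9 ± 12.5 CPM, against 0.102 ± 0.0576 CPM in lean LN (SD, n = 4 each). That diet difference had the smallest p of all genes that edgeR tested between these groups. It did not pass after adjustment there, while DESeq2 called it. No other member passed a comparison with edgeR, DESeq2 called Hilpda between lean tissues, and Cd36 and Dgat2 were almost or fully absent from most libraries.

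Levels are in CPM, the counts of a gene relative to the effective size of its library after TMM normalisation. Each library held 40212388 to 65957407 counts in total, and 3 counts, taken as the lowest level that can be told from none, equal 0.0437 to 0.0803 CPM. Such floors cover counting error only. Some libraries lacked genes that their group otherwise held. Of genes whose median was 10 CPM or more in a group's other libraries, HFD VAT replicates 1 and 3 had 11.4% and 11.5% at 3 counts or below, lean VAT replicate 1 had 13.3%, and the remaining libraries had 0.818% to 5.45%. Replicates of a group differed by far more than counting noise (chi-square per degree of freedom of 266 to 992 over 24 pairs). Every p-value given here rests on the spread among these libraries, some of which may be technical. T cell markers summed to 8782 to 9412 CPM in HFD VAT, 7630 to 8565 CPM in HFD LN, 7835 to 9841 CPM in lean VAT and 7687 to 8937 CPM in lean LN, with all 10 detected in every group. Their sum held moves of single genes: Cd8a averaged 2077 CPM in HFD VAT and 665 CPM in HFD LN (1.64, adjusted p = 1.68e-05 with edgeR), and Cd8b1 averaged 1228 CPM in HFD VAT and 2072 CPM in HFD LN (-0.75, adjusted p = 0.00241). In lean animals Cd8a differed by 1.36 (adjusted p = 9.10e-05 with edgeR), Cd8b1 by -0.59 (0.0179) and the signalling chain Cd247 by -0.85 (0.0187). Cd5 averaged 14.3 CPM in HFD VAT and 133 CPM in HFD LN, and 13.5 CPM in lean VAT and 186 CPM in lean LN, and was not called (adjusted p = 0.368 and 0.381 with edgeR). Whether these moves bear on the member genes was not tested.

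Fold changes are given as log2 ± standard error, with adjusted p-values from edgeR's quasi-likelihood test and Benjamini-Hochberg adjustment over 15675 genes. Of the 10 genes, 8 passed the filter on low counts and were tested, while Cd36 and Dgat2 did not. In HFD VAT against HFD LN, 1 of the 8 was called higher and 0 were called lower, beside 2.68% of all genes tested called higher (4.56% in either direction). In lean VAT against lean LN, 2 of the 8 were called higher and 0 lower, beside 2.12% of all genes called higher (3.04% in either direction). The median log2 fold change over the 8 was 0.33 on HFD, beside -0.10 over all genes, and 1.12 in lean animals, beside -0.00289. Libraries of the 2 tissues did not overlap for 2 of the 8 genes on HFD and for 2 of the 8 in lean animals, each higher in VAT, while 7.21% and 7.24% of all genes did so.

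Diet called none of the 8 genes with edgeR. In HFD VAT against lean VAT, 0 of the 8 passed, where 0.0574% of all genes did. Also 0 of them had an unadjusted p under 0.05, and DESeq2 and limma voom called 0 as well. Libraries of the diets overlapped for every one of the 8 in VAT, while those of 3.22% of all genes did not. In HFD LN against lean LN, 0 of the 8 passed, as did 0% of all genes. There 1 gene of the 8, Plin2, had an unadjusted p under 0.05, DESeq2 called 1 (beside 1.51% of all genes) and voom called 0. For the diet effect in VAT minus that in LN, 0 of the 8 passed, where 0.0191% of all genes did, and again 1 had an unadjusted p under 0.05, DESeq2 called 1 (beside 4.05% of all genes) and voom called 0.

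**Figure D1:**
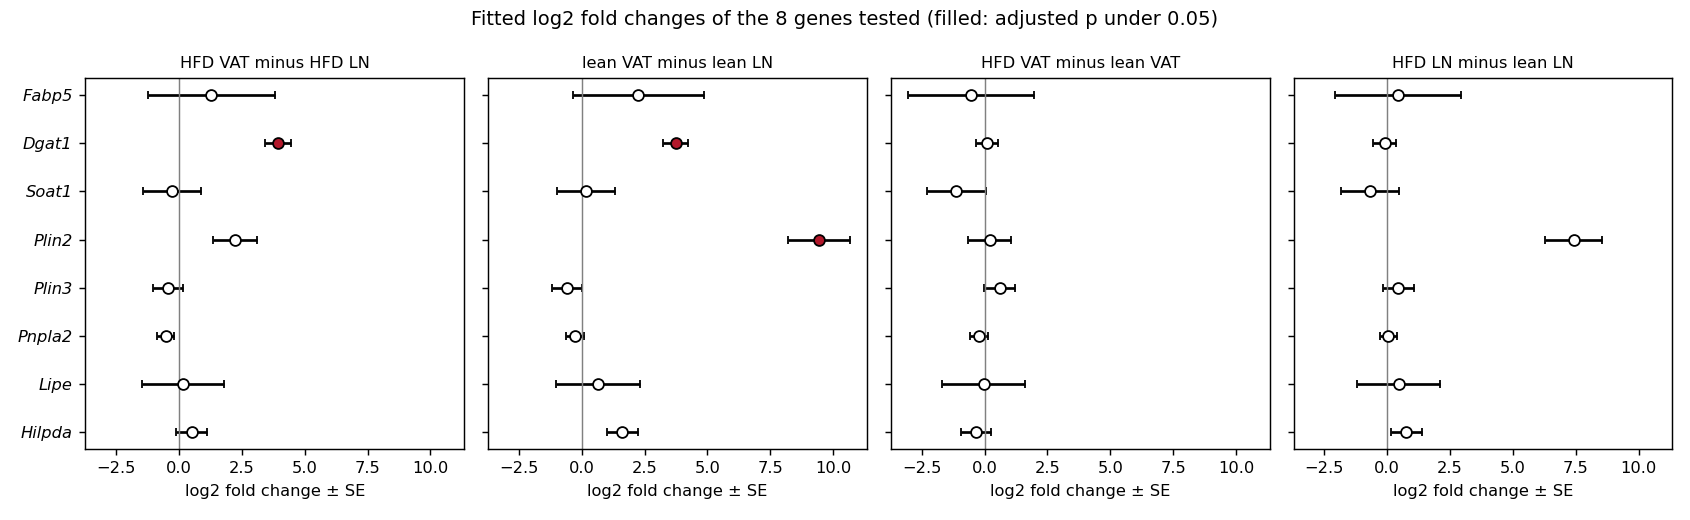
Log2 fold changes (points) with standard errors (bars) of the 8 member genes tested, in 4 panels for HFD VAT minus HFD LN, lean VAT minus lean LN, HFD VAT minus lean VAT and HFD LN minus lean LN; filled points passed an adjusted p of 0.05. Dgat1 lies at 3.94 and 3.73 in the tissue panels, Plin2 lies at 9.43 in the lean tissue panel and at 7.42, unfilled, in the LN diet panel, and the intervals of Fabp5 and Lipe span several log2 units.

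Fatty acid uptake and binding are represented by Cd36, a scavenger receptor that brings long-chain fatty acids into the cell, and Fabp5, a protein that carries them in the cytosol. Cd36 had counts in 3 of 16 libraries. It was listed at 0.262, 0, 0 and 0 CPM in HFD VAT replicates 1 to 4, at 0 in every HFD LN library, at 0, 8.46, 0 and 12.0 CPM in lean VAT and at 0 in every lean LN library. All of its counts thus lay in VAT libraries, 12 of them in HFD VAT and 1007 in lean VAT, but most VAT libraries had none. In the libraries with Cd36, HFD VAT replicate 1 and lean VAT replicates 2 and 4, macrophage markers summed to 62.0, 35.8 and 40.0 CPM, and adipocyte markers to 0.131, 7.99 and 0.217 CPM. The adipocyte sum of lean VAT replicate 2 was the highest of all 16 libraries, with Lpl at 7.81 CPM. The part of either cell type in these counts was not tested.

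Fabp5 had 0, 5.60, 15.0 and 6.41 CPM in HFD VAT, against 0, 0, 4.89 and 6.19 CPM in HFD LN. In lean animals it had 18.4, 5.06, 15.8 and 0 CPM in VAT, against 0, 0, 4.26 and 3.98 CPM in LN. Every group thus held libraries with none and libraries with several CPM, and all groups overlapped. The tissue differences were 1.28 ± 2.54 on HFD (adjusted p = 0.896 with edgeR) and 2.25 ± 2.61 in lean animals (adjusted p = 0.907). A near-identical copy, Fabp5l2, is a separate row of the table, and how reads shared with it were counted is not given in the sources used here.

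Ester synthesis is represented by Dgat1 and Dgat2, unrelated enzymes that both complete triglyceride, and by Soat1, which esterifies cholesterol. Dgat1 had 959, 1008, 843 and 1213 CPM in HFD VAT, against 89.0, 77.6, 18.1 and 77.8 CPM in HFD LN. In lean animals it had 1083, 935, 1011 and 735 CPM in VAT, against 32.5, 123, 85.0 and 41.8 CPM in LN. The lowest VAT library was far above the highest LN library on both diets, so the tissues did not overlap, while within each tissue the diets overlapped. Within a VAT group the highest library was 1.44 times (HFD) and 1.47 times (lean) the lowest, and within an LN group 4.91 times (HFD) and 3.80 times (lean).

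The tissue difference of Dgat1 was 3.94 ± 0.50 on HFD (1006 ± 155 against 65.6 ± 32.1 CPM, SD, n = 4 each; adjusted p = 0.000255 with edgeR). It was 3.73 ± 0.50 in lean animals (941 ± 150 against 70.7 ± 41.9 CPM; adjusted p = 0.000493 with edgeR). By p, Dgat1 ranked 108 among all genes on HFD and 92 in lean animals. Diet gave 0.10 ± 0.44 in VAT and -0.11 ± 0.44 in LN (adjusted p = 1 with edgeR in both), and the diet effects of the tissues differed by 0.20 ± 0.63. In bulk RNA, fewer cells with the transcript and less transcript per cell cannot be told apart.

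Markers of other cells moved with tissue too. The 12 macrophage markers summed to 33.4 to 131 CPM in HFD VAT and 0.0512 to 2.45 CPM in HFD LN, and to 27.5 to 78.7 CPM in lean VAT and 0.102 to 6.14 CPM in lean LN. Only 1 of the 12 passed the filter, Cd68, which averaged 60.9 CPM in HFD VAT and 0.600 CPM in HFD LN, and 38.8 CPM in lean VAT and 1.58 CPM in lean LN. Lyz2 averaged 4.03 CPM in HFD VAT and 4.44 CPM in lean VAT, from 2 libraries in all, and had no count in LN. C1qb averaged 6.42 CPM and Csf1r 2.43 CPM in HFD VAT, against 0 in HFD LN, with highest libraries of 25.7 and 9.73 CPM. C1qc reached 1.37 CPM in 1 lean VAT library, and C1qa had no count in any library. Of the 12 adipocyte markers 0 passed, and their sums were at most 2.05 CPM in HFD VAT, 0.460 CPM in HFD LN, 7.99 CPM in lean VAT and 0.395 CPM in lean LN. The highest single adipocyte marker was Lpl, at 7.81 CPM in 1 lean VAT library, and Cidec, a droplet protein of fat cells, had no count anywhere. The part of macrophage or adipocyte RNA in the tissue differences was not tested.

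B cell markers moved the other way. The 10 summed to 169 to 360 CPM in HFD VAT and 1734 to 2578 CPM in HFD LN, and to 85.6 to 221 CPM in lean VAT and 1621 to 3106 CPM in lean LN. The 9 dendritic cell markers summed to 35.1 to 162 CPM over both VAT groups and 34.3 to 149 CPM over both LN groups, but single markers moved in opposite directions. Itgax averaged 64.9 CPM in HFD VAT and 0 in HFD LN, and 32.6 CPM in lean VAT and 4.13 CPM in lean LN. Xcr1 averaged 23.1 CPM in HFD VAT and 2.48 CPM in HFD LN, and 24.7 CPM in lean VAT and 1.40 CPM in lean LN, while Ccr9 averaged 6.49 CPM in HFD VAT and 108 CPM in HFD LN, and 25.7 CPM in lean VAT and 88.9 CPM in lean LN. The 8 natural killer and innate lymphoid markers summed to 131 to 183 CPM in HFD VAT and 98.8 to 232 CPM in HFD LN, and to 100.1 to 216 CPM in lean VAT and 45.6 to 155 CPM in lean LN. The 8 endothelial markers summed to 43.5 to 103 CPM in HFD VAT and 124 to 204 CPM in HFD LN, and to 30.2 to 67.5 CPM in lean VAT and 70.4 to 168 CPM in lean LN, with 1 of them past the filter. The 8 fibroblast and progenitor markers summed to 268 to 518 CPM in HFD VAT and 468 to 628 CPM in HFD LN, and to 32.6 to 296 CPM in lean VAT and 387 to 602 CPM in lean LN. Only Dpp4, which T cells also express, passed the filter in that last list. The part of these cells was not tested.

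**Figure D2:**
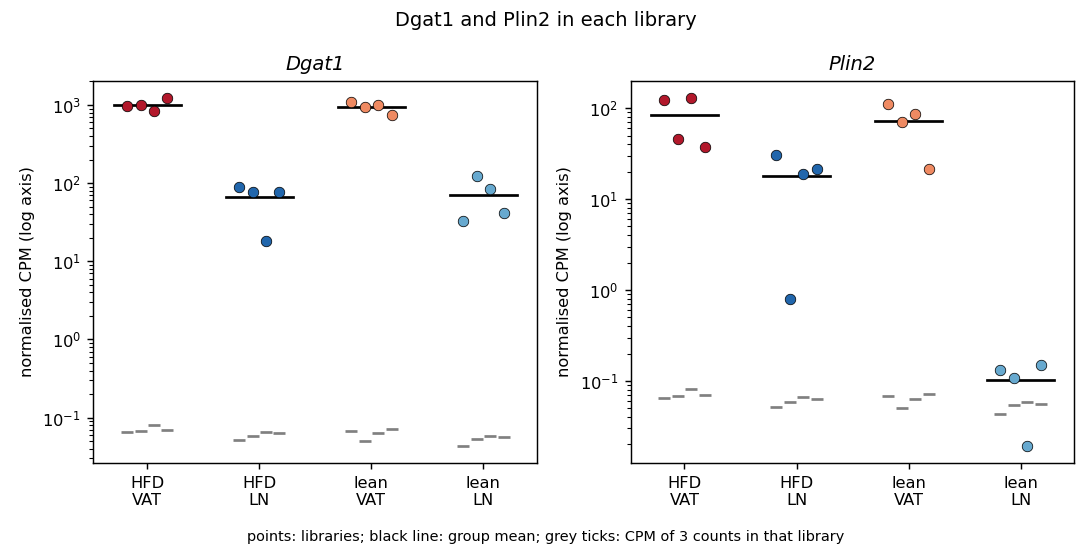
Normalised CPM of Dgat1 (left) and Plin2 (right) in each library on log axes, by group, with the group mean as a black line and the CPM that 3 counts equal as grey ticks. Dgat1 runs from 735 to 1213 CPM in VAT and from 18.1 to 123 CPM in LN, and Plin2 of lean LN lies at 0.0193 to 0.149 CPM, near the ticks.

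Dgat2 was the opposite case. It had no count in HFD VAT, 2 counts in HFD LN, 1 count in lean VAT and 610 counts in lean LN, of which nearly all lay in replicate 3, at 11.8 CPM. In 15 of 16 libraries Dgat2 was at 3 counts or fewer, so no level could be told from none there.

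Soat1 ranged from 0.134 to 31.9 CPM in HFD VAT, against 11.1 to 36.7 CPM in HFD LN, and from 24.5 to 66.5 CPM in lean VAT, against 2.40 to 99.8 CPM in lean LN. The ranges overlapped in all comparisons, and the low end of HFD VAT was replicate 3, a library in which many genes were absent. Fold changes were -0.26 ± 1.16 and 0.16 ± 1.15 between tissues on HFD and in lean animals, and -1.13 ± 1.17 and -0.70 ± 1.16 between diets in VAT and LN. A gene model on the other strand overlaps the span of Soat1, introns included, and the counting is not stated to use strand. Whether their exons overlap was not checked, so how far reads of the pair mix is not known.

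Per kilobase of the longest protein-coding transcript, Dgat1 made up 99.3% to 99.996% of the summed level of Dgat1, Dgat2 and Soat1 in HFD VAT and 68.6% to 96.9% in HFD LN. In lean animals it made up 98.0% to 99.4% in VAT and 59.1% to 98.7% in LN. On this scale Dgat1 was the highest of these genes in every library. In CPM, without regard to length, Soat1 was above Dgat1 in HFD LN replicate 3 (36.7 against 18.1 CPM). The same held in lean LN replicate 1 (99.8 against 32.5 CPM) and replicate 4 (43.2 against 41.8 CPM). The shares of VAT and LN did not overlap on HFD and overlapped in lean animals.

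The droplet coat is represented by Plin2, the perilipin of most non-fat cells, and Plin3, a relative that moves between cytosol and young droplets. Their promoter windows are shown because the levels of these related genes parted most clearly. Both are read 5′ to 3′ on the gene's minus strand from RefSeq on GRCm38.p6, from 250 bases before to 50 after the start. Plin2 lies at chr4:86670010-86670309 and Plin3 at chr17:56290462-56290761. Capitals mark CCAAT boxes (ATTGG on the other strand) and, in Plin2, the CACGTG in which the hypoxia response element core ACGTG is read on both strands.
Plin2 promoter: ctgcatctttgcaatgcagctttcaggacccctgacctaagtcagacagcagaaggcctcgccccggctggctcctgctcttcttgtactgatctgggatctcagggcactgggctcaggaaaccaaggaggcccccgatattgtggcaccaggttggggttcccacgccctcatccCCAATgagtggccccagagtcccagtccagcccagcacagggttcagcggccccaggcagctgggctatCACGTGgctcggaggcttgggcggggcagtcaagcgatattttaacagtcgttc
Plin3 promoter: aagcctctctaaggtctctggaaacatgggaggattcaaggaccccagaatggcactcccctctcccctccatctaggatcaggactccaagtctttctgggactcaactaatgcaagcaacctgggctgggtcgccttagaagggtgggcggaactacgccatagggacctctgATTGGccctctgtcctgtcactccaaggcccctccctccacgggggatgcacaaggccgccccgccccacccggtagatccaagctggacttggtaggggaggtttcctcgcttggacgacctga

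Searched on both strands, the CCAAT box (CCAAT) began at base 178 of the Plin2 window and 176 of the Plin3 window, and 37.4% of 32851 mouse promoter windows hold one. ACGTG matched at bases 247 and 248 of the Plin2 window, as overlapping readings of one palindrome, and at none in Plin3, and 19.6% of windows hold it. Neither window held GAAANNGAAA, the interferon-stimulated response element (3.44% of windows), AGGTCANAGGTCA, the PPAR direct repeat (0.0396%), or TGANTCA, the AP-1 site (7.81%). The 5 member genes with a window that are not shown held neither GAAANNGAAA nor AGGTCANAGGTCA. ACGTG was not particular to Plin2 among the members. It also matched in a window of Lipe (bases 96 and 97) and a window of Hilpda (base 208). Of the 10, 7 had a window, and Dgat1, Dgat2 and Fabp5 did not.

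Plin2 had 123, 45.5, 128 and 37.3 CPM in HFD VAT, against 30.5, 0.805, 18.8 and 21.5 CPM in HFD LN. In lean animals it had 113, 70.2, 85.6 and 21.3 CPM in VAT, against 0.131, 0.108, 0.0193 and 0.149 CPM in LN. Every VAT library was higher than every LN library of its diet, and the 4 lean LN libraries, with 9, 6, 1 and 8 counts, were lower than every HFD LN library. The lowest HFD LN library, replicate 2, stood well below its other 3, which lay near the lowest lean VAT library.

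In lean animals the tissue difference of Plin2 was 9.43 ± 1.23 (72.4 ± 38.3 against 0.102 ± 0.0576 CPM, SD, n = 4 each; adjusted p = 0.000434 with edgeR). On HFD it was 2.22 ± 0.89 (83.7 ± 48.9 against 17.9 ± 12.5 CPM; unadjusted p = 0.0252, adjusted p = 0.190 with edgeR). The lean difference was called in 17 of 17 alternative settings and the HFD difference in 1 of 17, where DESeq2 gave an adjusted p of 0.0379. Without the 3 VAT libraries that lacked the largest share of genes, the HFD difference was 1.20 (adjusted p = 0.583 with edgeR).

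Between diets, Plin2 differed by 0.21 ± 0.85 in VAT and by 7.42 ± 1.13 in LN (HFD minus lean, n = 4 each). The LN difference ranked first by p of the 15675 genes (unadjusted p = 1.33e-05, adjusted p = 0.113 with edgeR). HFD LN and lean LN libraries did not overlap for Plin2, as for 1.07% of all genes in that direction. The diet effect in VAT minus that in LN was -7.21 ± 1.34 (rank 11 by p, unadjusted p = 9.86e-05, adjusted p = 0.141 with edgeR).

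Among the edgeR fits that left out a single library, these differences passed only without HFD LN replicate 2, the lowest in Plin2 of its group. Without it, the LN diet difference was 7.81 (adjusted p = 0.0105 with edgeR) and the difference between diet effects was -7.60 (adjusted p = 0.0423 with edgeR). DESeq2 called both on all libraries, with adjusted p-values of 1.27e-14 and 5.16e-07. With only the LN groups in the fit, the adjusted p of the LN difference was 0.611 with edgeR. Over all alternatives it ranged from 1.27e-14 to 1, with 2 of 16 calling it, and for the difference between diet effects from 5.16e-07 to 0.705, with 2 of 24 calling it. Macrophage marker sums in LN were 0.0512 to 2.45 CPM on HFD and 0.102 to 6.14 CPM in lean animals, and their part in the diet difference was not tested.

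Plin3 ranged from 13.6 to 185 CPM in HFD VAT, against 65.4 to 185 CPM in HFD LN, and from 35.1 to 80.5 CPM in lean VAT, against 50.2 to 100.2 CPM in lean LN. It was present in all 16 libraries, and its ranges overlapped between tissues and diets. Its tissue differences were -0.43 ± 0.61 on HFD (adjusted p = 0.834 with edgeR) and -0.59 ± 0.61 in lean animals (adjusted p = 0.883), the opposite sign to Plin2. Whether the Plin2 and Plin3 differences differ from each other was not tested.

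Levels were set side by side per kilobase. Plin2 made up 94.6%, 45.5%, 57.3% and 66.3% of the summed Plin2 and Plin3 level in HFD VAT, against 34.6%, 0.834%, 35.7% and 29.8% in HFD LN. In lean animals its share was 80.9%, 79.4%, 67.2% and 41.5% in VAT, against 0.252%, 0.212%, 0.0419% and 0.572% in LN. The shares of VAT and LN did not overlap on either diet, and those of HFD LN and lean LN did not overlap. VAT shares of the diets did overlap, with medians of 61.8% on HFD and 73.3% in lean animals. The highest share, 94.6%, was in HFD VAT replicate 1, one of the libraries with many genes absent, where Plin3 was at its lowest.

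**Figure D3:**
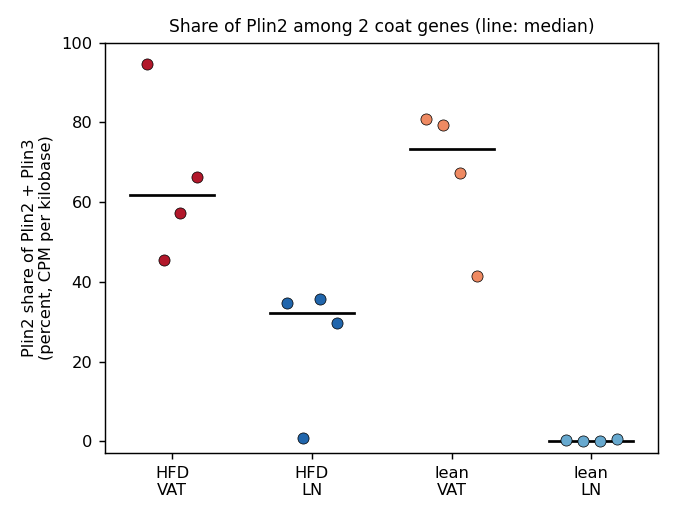
Share of Plin2 in the summed CPM per kilobase of Plin2 and Plin3 (percent), in each library by group, with the group median as a black line. Shares reach 41.5% to 94.6% in VAT, 0.834% to 35.7% in HFD LN and under 1% in lean LN.

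Lipolysis is represented by Pnpla2, the lipase that takes the first fatty acid from triglyceride, by Lipe, hormone-sensitive lipase, which takes the next, and by Hilpda, a hypoxia-induced protein that inhibits the Pnpla2 enzyme. Pnpla2 ranged from 76.3 to 188 CPM in HFD VAT, against 118 to 218 CPM in HFD LN, and from 67.8 to 205 CPM in lean VAT, against 142 to 221 CPM in lean LN. It was among the steadiest of these genes, with overlapping ranges throughout. Tissue gave -0.54 ± 0.34 on HFD (adjusted p = 0.475 with edgeR) and -0.27 ± 0.34 in lean animals (adjusted p = 0.926), and diet gave -0.22 ± 0.34 in VAT and 0.05 ± 0.34 in LN.

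Lipe was low and uneven, at 0.0436, 31.4, 0 and 23.3 CPM in HFD VAT, against 3.24, 7.64, 16.1 and 22.2 CPM in HFD LN. In lean VAT it ranged from 1.00 to 38.3 CPM, against 4.31 to 13.7 CPM in lean LN. Its near-empty libraries were HFD VAT replicates 1 and 3, and all groups overlapped. The tissue difference on HFD was 0.16 ± 1.65 (adjusted p = 0.989 with edgeR), and its sign turned in several alternatives. An antisense gene, 4732471J01Rik, overlaps the span of Lipe, introns included. Whether their exons overlap was not checked, so how far reads of the pair mix without strand is not known.

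Hilpda had 24.2, 40.1, 21.5 and 61.2 CPM in HFD VAT, against 17.9, 27.6, 33.4 and 24.8 CPM in HFD LN. In lean animals it had 102, 32.7, 26.5 and 24.6 CPM in VAT, against 9.70, 10.6, 29.1 and 12.0 CPM in LN. On HFD the tissues overlapped, and in lean animals a single LN library reached into the VAT range. The tissue difference was 0.50 ± 0.60 on HFD (adjusted p = 0.789 with edgeR) and 1.60 ± 0.62 in lean animals (unadjusted p = 0.0212, adjusted p = 0.244 with edgeR). DESeq2 called the lean difference, at 1.48 with an adjusted p of 0.0452. Without lean VAT replicate 1, the highest library and one in which many genes were absent, edgeR gave 0.86 (adjusted p = 0.581). Diet gave -0.34 ± 0.60 in VAT and 0.76 ± 0.61 in LN.

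**Figure D4:**
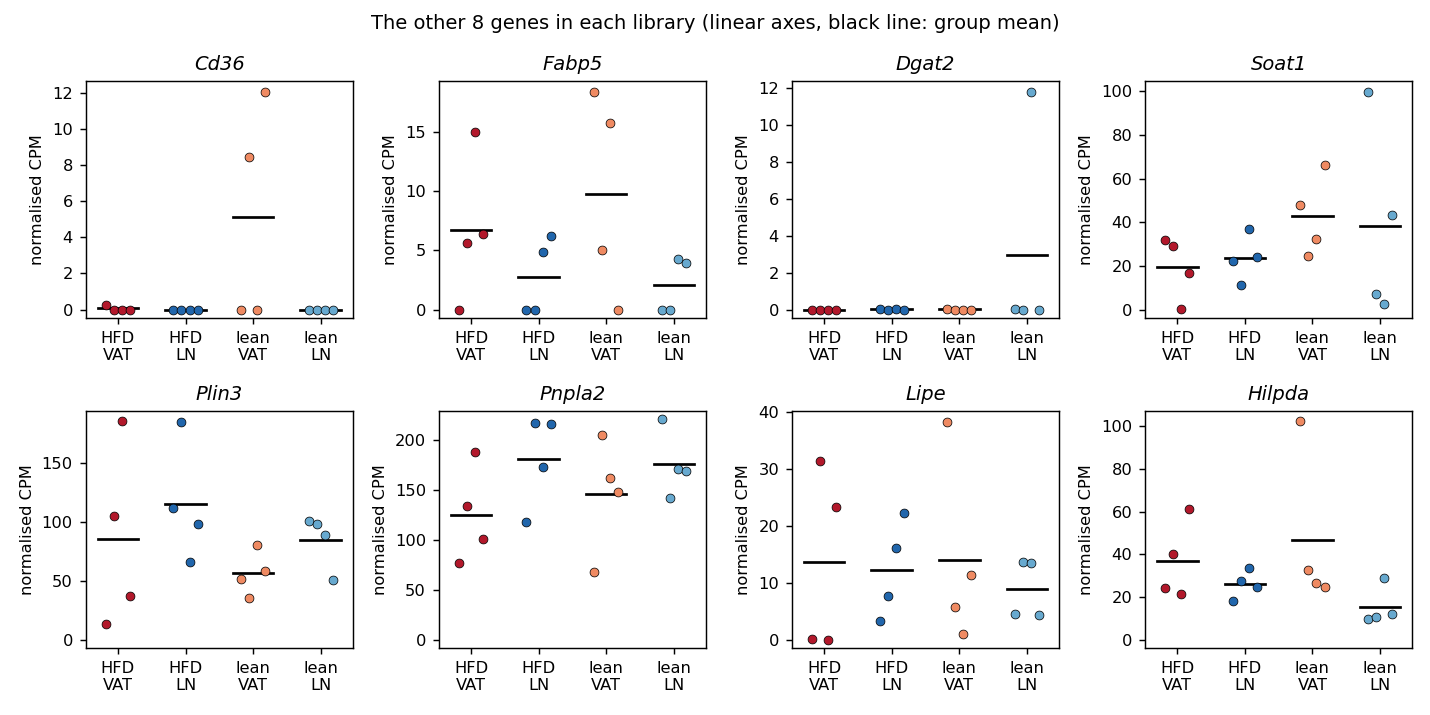
Normalised CPM of the other 8 genes in each library, on linear axes that start near 0, by group, with the group mean as a black line. Cd36 exceeds 1 CPM in 2 lean VAT libraries and Dgat2 in 1 lean LN library, and the groups of Fabp5, Soat1, Plin3, Pnpla2, Lipe and Hilpda overlap in both tissue comparisons.

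Across the 16 libraries, the genes most like Dgat1 by Pearson correlation of log2(CPM + 1), among 9284 candidates, were Irf7 (r = 0.981), Trafd1 (0.976), Lilrb4b (0.973), Lgals3 (0.965) and Mx1 (0.965). Irf7 and Mx1 belong to the interferon response, and Lgals3 encodes galectin-3. These correlations hold libraries of both tissues, which fall apart as clusters. Within the 8 VAT libraries the r of the same genes with Dgat1 was 0.205, 0.507, 0.0312, 0.389 and -0.0717, and within the 8 LN libraries 0.886, 0.693, 0.727, 0.632 and 0.538.

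Plin2 was most like Klrc2 (r = 0.896), Trgc4 (0.891), Ccl5 (0.884), Oas1a (0.881) and Oas1g (0.875). Klrc2 encodes a receptor of killer cells, Ccl5 a chemokine of effector T cells, and the Oas1 genes antiviral enzymes. Within the 8 VAT libraries r was -0.0110, 0.307, 0.535, 0.465 and 0.551, and within the 8 LN libraries 0.813, 0.755, 0.682, 0.655 and 0.741. Dgat1 and Plin2 correlated with each other at 0.197 within VAT and -0.148 within LN. These are descriptions of libraries that share tissue, diet and composition.

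Other genes of the pathway were read from 9 lists with 139 distinct genes, of which 95 were tested. None of the 95 was called higher by edgeR between tissues on either diet. On HFD 4 of the 95 were called lower in VAT (4.21%, where 1.88% of all genes were), and in lean animals 1 was (1.05%, where 0.919% of all genes were). The median log2 fold change of the 95 was -0.21 on HFD, beside -0.10 over all genes, and 0.09 in lean animals, beside -0.00289. In either direction, an unadjusted p under 0.05 was found for 22.1% of the 95 on HFD (21 genes), where 18.8% of all genes had one, and for 13.7% in lean animals (13 genes), where 13.8% had one. DESeq2 called 17.9% on HFD (17 genes; 16.4% of all genes) and 9.47% in lean animals (9 genes; 10.0% of all genes). Voom called 6.32% on HFD (6 genes; 6.36% of all genes) and 12.6% in lean animals (12 genes; 8.61% of all genes). Most of these shares were close to those of all genes.

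Triglyceride synthesis, the acyltransferases and lipins upstream of Dgat1, had 11 of 14 genes tested and 0 called in each tissue comparison. Their median was 0.13 on HFD, and 2 had an unadjusted p under 0.05 on each diet, with 0 called by DESeq2 or voom. Fatty acid activation and desaturation had 13 of 18 tested and 0 called, with a median of -0.21 on HFD. Droplet coats and assembly other than Plin2 and Plin3 had 12 of 20 tested and 0 called, with a median of -0.06, and lipolysis and its regulators had 11 of 16 tested and 0 called, with a median of -0.80. In the order activation, coats and lipolysis, DESeq2 called 2, 3 and 2 genes on HFD, and 0, 1 and 0 in lean animals; voom called 1, 0 and 0 on HFD, and 2, 1 and 1 in lean animals. At an unadjusted p under 0.05 they held 4, 3 and 2 genes on HFD, and 1, 2 and 0 in lean animals. In lists of this size such counts are to be read against the shares of all genes given above.

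Apoe, an apolipoprotein that carries cholesterol out of cells, was the only one of 8 tested genes of sterol esters and export that edgeR called. It had 1 count in all of HFD VAT, against 61.98, 124, 139.8 and 174 CPM in HFD LN, an LN to VAT ratio of 21945 with a 95% interval of 3939 to 866800 that covers counting error only (adjusted p = 0.000798 with edgeR). Ppargc1b, a coactivator of oxidative metabolism among 12 regulators tested, had 3 counts in HFD VAT, against 3.48 to 23.4 CPM in HFD LN, a ratio of 847 with an interval of 290.0 to 4109 (adjusted p = 0.0163 with edgeR). No HFD VAT library overlapped an LN library for either gene. In lean animals both were also lower in VAT without overlap, but edgeR called neither. Apoe averaged 6.17 CPM in lean VAT and 108 CPM in lean LN (adjusted p = 0.131 with edgeR). Ppargc1b averaged 6.19 CPM in lean VAT and 33.6 CPM in lean LN (adjusted p = 0.589 with edgeR). Of the 8 genes of sterol esters and export, 3 had an unadjusted p under 0.05 with edgeR on HFD (37.5%, beside 18.8% of all genes). In lean animals 2 did (25%, beside 13.8%). DESeq2 called 3 on HFD (37.5%, beside 16.4%) and 2 in lean animals (25%, beside 10%). Voom called 3 on HFD (37.5%, beside 6.36%) and 2 in lean animals (25%, beside 8.61%). These shares were above those of all genes but rest on few genes.

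Scarb1, a receptor that takes up lipid from lipoproteins and 1 of 8 uptake genes tested, averaged 0.0471 ± 0.0180 CPM in HFD VAT and 15.7 ± 12.2 CPM in HFD LN (-8.30, adjusted p = 0.0247 with edgeR). Its HFD LN replicate 2 had 3 counts and overlapped VAT. In lean animals Scarb1 averaged 0.163 CPM in VAT and 25.3 CPM in LN, without overlap (-7.26, adjusted p = 0.0504 with edgeR). Pdk1, a kinase that inhibits pyruvate dehydrogenase and 1 of 12 hypoxia-induced genes tested, was lower in VAT on both diets. It averaged 101 ± 32.3 CPM in HFD VAT and 439 ± 176 CPM in HFD LN (-2.11, adjusted p = 0.0408 with edgeR), and 73.5 ± 43.0 CPM in lean VAT and 403 ± 79.1 CPM in lean LN (-2.46, adjusted p = 0.0232).

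Except for Apoe, calls of these genes were less steady than those of Dgat1. Over 17 alternatives on HFD, Apoe was called in 17, Ppargc1b in 15 and Pdk1 in 7, and Scarb1 in 8 of 16. In lean animals Pdk1 was called in 10 of 17. Scarb1 lost its call without any single HFD VAT library or without HFD LN replicate 1 (adjusted p up to 0.0734), Ppargc1b without HFD VAT replicate 1 or 2 (up to 0.0530), and Pdk1 on HFD without any library but HFD LN replicate 3 (up to 0.109). In lean animals Pdk1 lost its call without LN replicate 2, 3 or 4, or VAT replicate 3 or 4 (up to 0.0638). All 4 genes were higher in LN, as were the B cell markers, and the part of B cells was not tested.

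The remaining list, targets of the lipid receptors PPAR and LXR, had 11 of 14 genes tested and 0 called by edgeR in either tissue comparison. It had a median of -0.36 on HFD and 1 gene at an unadjusted p under 0.05 on each diet, with 1 called by DESeq2 and 0 by voom on each. Between diets, 0 of the 95 pathway genes passed with edgeR in VAT, in LN or for the difference between diet effects. An unadjusted p under 0.05 was found for 14 of the 95 in VAT (14.7%, beside 8.08% of all genes), 3 in LN (3.16%, beside 3.37%) and 8 for the difference (8.42%, beside 6.16%). DESeq2 called 9 in VAT (9.47%, beside 4.91% of all genes), 1 in LN (1.05%, beside 1.51%) and 7 for the difference (7.37%, beside 4.05%), and voom called 0 in each. The medians of the 95 were -0.00420 for diet in VAT, -0.13 for diet in LN and -0.13 for the difference.

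**Figure D5:**
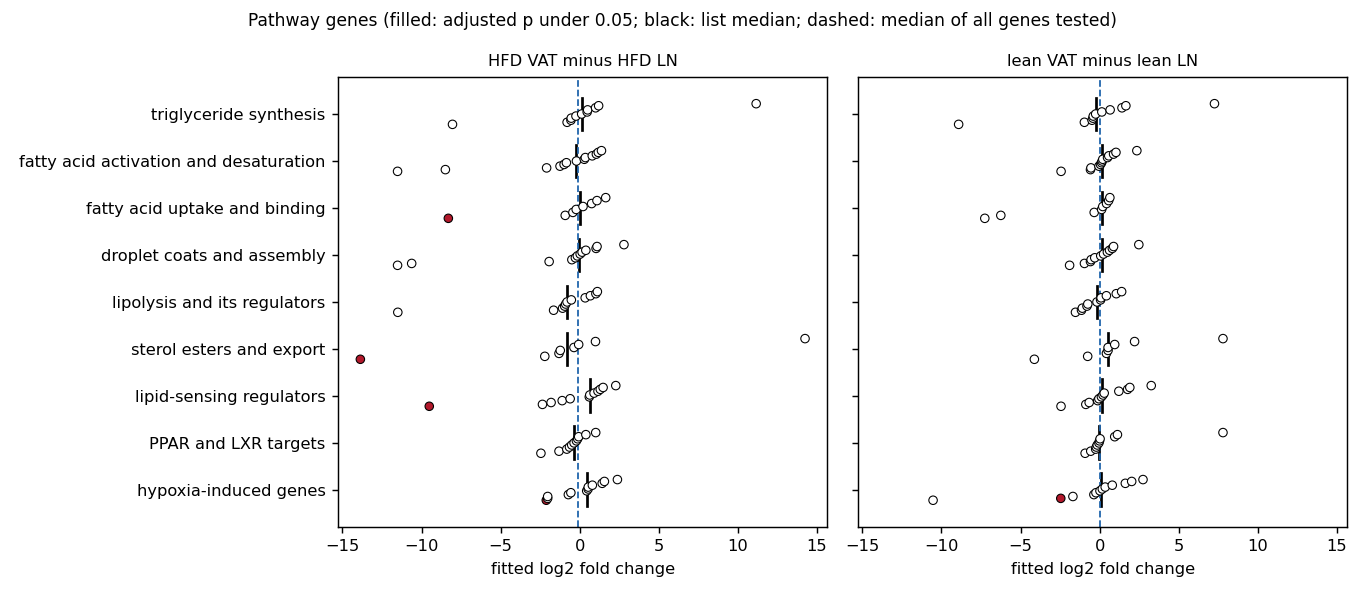
Fitted log2 fold changes of the pathway genes tested (points, 1 row a list) for HFD VAT minus HFD LN (left) and lean VAT minus lean LN (right); filled points passed an adjusted p of 0.05, black ticks are list medians and the dashed line is the median of all genes tested. The filled points, 4 on HFD and 1 in lean animals, all lie below 0.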

How the data were processed

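RNA of OT-I T cells was sequenced in 16 libraries. The authors deposited whole-number raw counts of each gene in each library, and no sample column was left out. The submitters' processing notes name kallisto 0.42.4, DESeq2 and GRCh38, a human build, although the symbols are of mouse, and how kallisto's estimates became whole counts is not given in the sources used here. Per the labels, the cells were freshly isolated in one field and cultured overnight before sorting in another; a growth protocol is for different cells, and the kit and sequencer are given in conflicting ways. Sample columns also carry an unexplained term, Neg-OVA. No batch is given.

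Genes passing filterByExpr were fitted together with edgeR 4.0.16 (TMM, robust quasi-likelihood, 4 groups, Benjamini-Hochberg, threshold 0.05) in R 4.3.3, with limma 3.58.1 (voom with quality weights) and DESeq2 1.42.0 as alternatives. A standard error is the size of the log2 fold change over the square root of F. The fits were also run on simulated counts, in which known folds were given only to genes with high mean counts. Libraries that lack many genes were not modelled there, and no result given here rests on that run. Other alternatives were RLE and upper quartile scaling, a filter of 5 CPM in 4 libraries, no filter, only the groups compared, the replicate number as a block, leaving out each library, and leaving out the 3 VAT libraries that lack the largest share of genes. Coding transcript lengths came from GENCODE M21. Python 3.11.15 with NumPy 2.4.6, pandas 2.3.3 and Matplotlib 3.10.9 read sequences and drew plots.

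Named genes were the 10 members, up to 4 pathway genes called per list and comparison, and the 5 genes most like each member called, among tested genes of at least 5 CPM on average. Members, lists and alternatives were chosen with earlier results of these data known.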

Additional observations from a re-analysis of the deposited data

Results flagged for a closer look

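In groups of 4 libraries, a library was singled out when its gap to the nearest other library exceeded the critical share of the group's range in Dixon's test. Of 37 combinations of gene and group with any range, 6 met this, and chance alone gives about 1 in 20 (5%). In 3 of the 6 the other libraries of the group were at 3 counts or fewer, where any counts in 1 library meet the rule by construction, so the 6 are not to be set against that share. Hilpda stood apart at 102 CPM in lean VAT replicate 1, against 24.6 to 32.7 CPM in the other lean VAT libraries, and at 29.1 CPM in lean LN replicate 3, against 9.70 to 12.0 CPM. Dgat1 was low in HFD LN replicate 3, at 18.1 CPM against 77.6 to 89.0 CPM. Dgat2 reached 11.8 CPM in lean LN replicate 3, where the other lean LN libraries had at most 0.0146 CPM, and 0.0226 CPM in lean VAT replicate 1, which is 1 count. Cd36 was 0.262 CPM in HFD VAT replicate 1 and 0 in the others of that group.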

How the results depend on the processing

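Dgat1 in both tissue comparisons and Plin2 between lean tissues were called in every alternative run. DESeq2 called 2 members between tissues on HFD, 1 between diets in LN and 1 for the difference between diet effects, and without 1 library the last 2 counts ranged from 0 to 1. All genes called between tissues numbered 441 (no filter) and 2578 (DESeq2) on HFD, against 714, and 1569 (DESeq2) and 1350 (voom) in lean animals, against 476. Between diets in VAT they numbered 2 (no filter), 769 (DESeq2), 32 (voom), 1 (replicate block), 0 (only the groups compared) and 62 (without the 3 VAT libraries that lack the largest share of genes), against 9, and 3 to 40 without 1 library. In LN they numbered 236 (DESeq2) and 3 (voom), against 0, and 0 to 1 without 1 library. For the difference they numbered 1 (upper quartile, no filter and the 5 CPM filter each), 635 (DESeq2), 6 (voom), 0 (replicate block) and 46 (without the 3 libraries), against 3, and 0 to 24 without 1 library.

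The sign of uncalled members turned as follows. Under voom, log2 was -1.74 for Lipe between tissues on HFD and -0.74 in lean animals, 1.25 for Fabp5 and 0.41 for Hilpda between diets in VAT, 0.14 for Dgat1, -0.0817 for Pnpla2, 0.34 for Soat1 and -1.03 for Fabp5 between diets in LN, and -0.36 for Plin3 and 2.27 for Fabp5 in the difference. With the replicate block it was -0.29 for Lipe between tissues on HFD, -0.0460 for Pnpla2 and 0.19 for Soat1 between diets in LN, and -0.16 for Plin3 in the difference. Without the 3 VAT libraries it was -0.61 for Lipe between lean tissues, 2.20 for Lipe, 0.87 for Hilpda and -0.50 for Plin2 between diets in VAT, and -0.14 for Plin3, 1.75 for Lipe and 0.11 for Hilpda in the difference. Lipe between diets in VAT was 0.10 (RLE), 0.0391 (no filter) and 0.10 (DESeq2). RLE moved the median of all genes by 0.102 in the difference.

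Leaving out 1 library gave these ranges. Between tissues they were -0.66 to 0.61 (Lipe) and -0.60 to 0.15 (Soat1) on HFD, and -0.58 to 1.03 (Lipe) and -0.24 to 1.26 (Soat1) in lean animals. Between diets in VAT they were -0.85 to 1.18 (Lipe), -0.00450 to 0.17 (Dgat1), -0.12 to 0.96 (Plin3), -0.49 to 0.000691 (Pnpla2), -0.0946 to 0.50 (Plin2) and -0.70 to 0.39 (Hilpda). In LN they were -0.000387 to 0.76 (Lipe), -0.35 to 0.30 (Dgat1), -0.0578 to 0.20 (Pnpla2), -1.09 to 0.41 (Soat1) and -0.34 to 1.05 (Fabp5). For the difference they were -1.30 to 0.74 (Lipe), -0.20 to 0.46 (Dgat1) and -0.56 to 0.51 (Plin3). The cause of these changes was not tested.

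The labels give every group replicate numbers 1 to 4, but same-numbered libraries did not deviate together (correlations of -0.0786 to 0.0393), so the numbers were not taken as pairs. With the replicate block, no member gained or lost a call, while Pdk1 lost its call on HFD (adjusted p = 0.0874) and in lean animals (adjusted p = 0.0610). The spread between libraries, with a common dispersion of 1.52, limits what 4 libraries a group can show.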

Other observations

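Some pathway genes outside the rule for named genes were picked after their values were seen. Soat2, the sterol acyltransferase related to Soat1, had 4.77 to 109 CPM in HFD VAT and no count in any HFD LN library (adjusted p = 0.0808 with edgeR). In lean animals it had 0 to 24.1 CPM in VAT and 0 to 14.1 CPM in LN. G0s2, an inhibitor of the Pnpla2 lipase, had no count in HFD VAT and 5.83 to 10.1 CPM in HFD LN (adjusted p = 0.0944 with edgeR), and in lean animals 0 to 26.6 CPM in VAT and 0 to 15.3 CPM in LN. Hif1a, a subunit of the hypoxia-inducible factor, had 239 to 442 CPM in HFD VAT and 80.1 to 132 CPM in HFD LN, and 207 to 315 CPM in lean VAT and 24.1 to 126 CPM in lean LN. Its libraries did not overlap between tissues on either diet, and its adjusted p was 0.0529 on HFD and 0.0568 in lean animals with edgeR.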
